A study of Mus musculus with 4 samples.

Results

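The genes described here encode the respiratory chain subunits that are made from nuclear DNA. They were chosen by a rule that uses only symbols: those that begin with Ndufa, Ndufb, Ndufc, Ndufs or Ndufv and a digit, Sdha to Sdhd, symbols that begin with Uqcr, Cyc1, Cox4 to Cox8, and symbols that begin with Atp5. This gave 85 of the 24346 gene symbols in the tables, with 37 in complex I, 4 in complex II, 9 in complex III, 18 in complex IV and 17 in complex V. Of the 85 genes, 79 averaged 1 FPKM or more (fragments per kilobase of transcript, scaled to the number of mapped fragments, and so a level per length) over the 4 libraries and entered the comparisons, beside 10686 genes in all. The 6 that did not were complex IV paralogs and are described with that complex.

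Liver RNA was sequenced from male ob/ob mice, an obese strain that lacks leptin in every group. The mice were fed from 6 weeks of age for 4 weeks with CD (regular chow), CD+7KC, WD (western type diet, high in fat) or WD+7KC. Every diet held 1% cholesterol, and the diets with 7KC (7-ketocholesterol, an oxidized cholesterol) held 0.01% of it. Each group had 1 library, so the differences between groups were not set against any spread between mice and no p-value was computed. The number of mice behind a library is not given in the sources used here. The study asked what a small amount of dietary 7KC does to the obese liver under each diet. Estimated depth was 9400000 to 12100000 fragments per library, and the members with 1 annotated mRNA had 20.2 to 17165 estimated reads per library, with a median of 1913.

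The respiratory chain sits in the inner mitochondrial membrane. Complexes I and II take electrons from NADH and succinate, complex III passes them to cytochrome c, complex IV hands them to oxygen, and complex V (ATP synthase) uses the proton gradient built by complexes I, III and IV to make ATP. Most subunits come from nuclear genes and join a small set encoded by mitochondrial DNA, of which 0 of 13 are listed in these tables. Hepatocytes are rich in mitochondria and oxidize much of the fatty acid that reaches the liver.

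In all libraries the members were abundant. Their summed level was 29215 (CD), 28395 (CD+7KC), 29705 (WD) and 24552 FPKM (WD+7KC), lowest in WD+7KC. As a share of all FPKM in the library this was 4.08%, 4.08%, 4.25% and 4.08%, so that WD was the highest by share and the others were alike. The sum over all genes was itself lower in WD+7KC, at 602059 FPKM, than in the other libraries, at 696062 to 715605. The highest mean level belonged to Ndufa4 in the genes named for complex I, Sdhb in complex II, Uqcrq in complex III, Cox6a1 in complex IV and Atp5k in complex V. The median level in WD+7KC was 170 FPKM for complex I, 182 for complex II, 442 for complex III, 436 for complex IV and 362 for complex V.

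**Figure D1:**
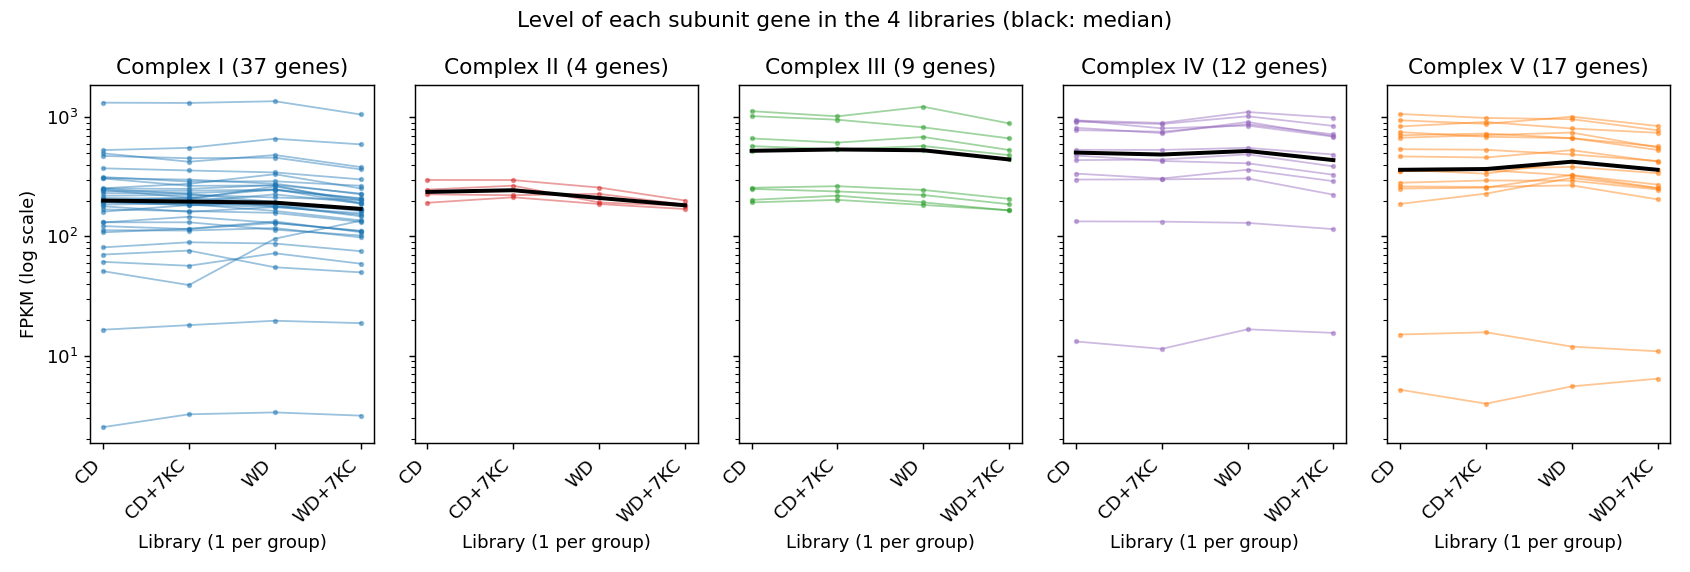
Level of each subunit gene that passed the filter (colored lines, FPKM on a log axis) in the 4 libraries, with 1 panel per complex and the median in black. The black line was lowest in WD+7KC for complexes I to IV, and at 362 FPKM in both CD and WD+7KC for complex V.

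In WD+7KC compared to WD, 77 of 79 members were lower, beside 54.5% of all genes tested. The median log2 fold change was -0.25 (0.843-fold) for the members and -0.03 for all genes, and single members ranged from -0.49 (Ndufb4) to 0.50 (Ndufs5). With a threshold of 20% lower or 25% higher (0.322 on the log2 scale), 17 members (21.5%) were past it on the lower side, beside 13.1% of all genes and 22.6% of the genes averaging 50 FPKM or more. On the higher side was 1 member, Ndufs5, beside 15.3% of all genes. With the libraries rescaled to equal sums, 0 members were past the threshold on the lower side. Beside them were 4.15% of all genes and 5.26% of those averaging 50 FPKM or more. On the higher side were then 2 members, beside 31.5% of all genes and 7.76% of those averaging 50 FPKM or more. As deposited, WD+7KC held the lowest of the 4 levels for 66 of 79 members (83.5%), for 32.9% of all genes tested and for 58.3% of those averaging 50 FPKM or more, and with equal sums for 25 members (31.6%), 10.8% and 24.1%. In bulk tissue, fewer cells of a type and less RNA per cell cannot be told apart.

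As deposited, most genes of each complex were lower in WD+7KC than in WD. Lower as well were 54.5% of all genes tested and 84.2% of those averaging 50 FPKM or more. The median log2 fold change in WD+7KC compared to WD was -0.23 for complex I, with 36 of 37 genes lower. It was -0.22 for complex II (4 of 4 lower), -0.26 for complex III (9 of 9 lower), -0.30 for complex IV (12 of 12 lower) and -0.26 for complex V (16 of 17 lower). The 5 medians lay between -0.30 and -0.22, while single members of complex I ranged from -0.49 to 0.50. Rescaling the libraries to equal sums (TPM) raised every WD+7KC to WD log2 value by about 0.22. The median of the members was then -0.03 with 53 lower and 26 higher, the median of all genes was 0.18, and every complex kept a median below 0, between -0.08 and -0.01. Lower genes were then 23 of 37 in complex I, 2 of 4 in complex II, 8 of 9 in complex III, 8 of 12 in complex IV and 12 of 17 in complex V. Beside them, 2534 of all 10686 genes tested were lower, and 669 of the 1521 averaging 50 FPKM or more. The members were lower than the median gene. Each scaling tried multiplies a library by 1 factor, so this gap could hardly change with it and its persistence is no check. The members' direction in absolute terms was weak once the sums were made equal.

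**Figure D2:**
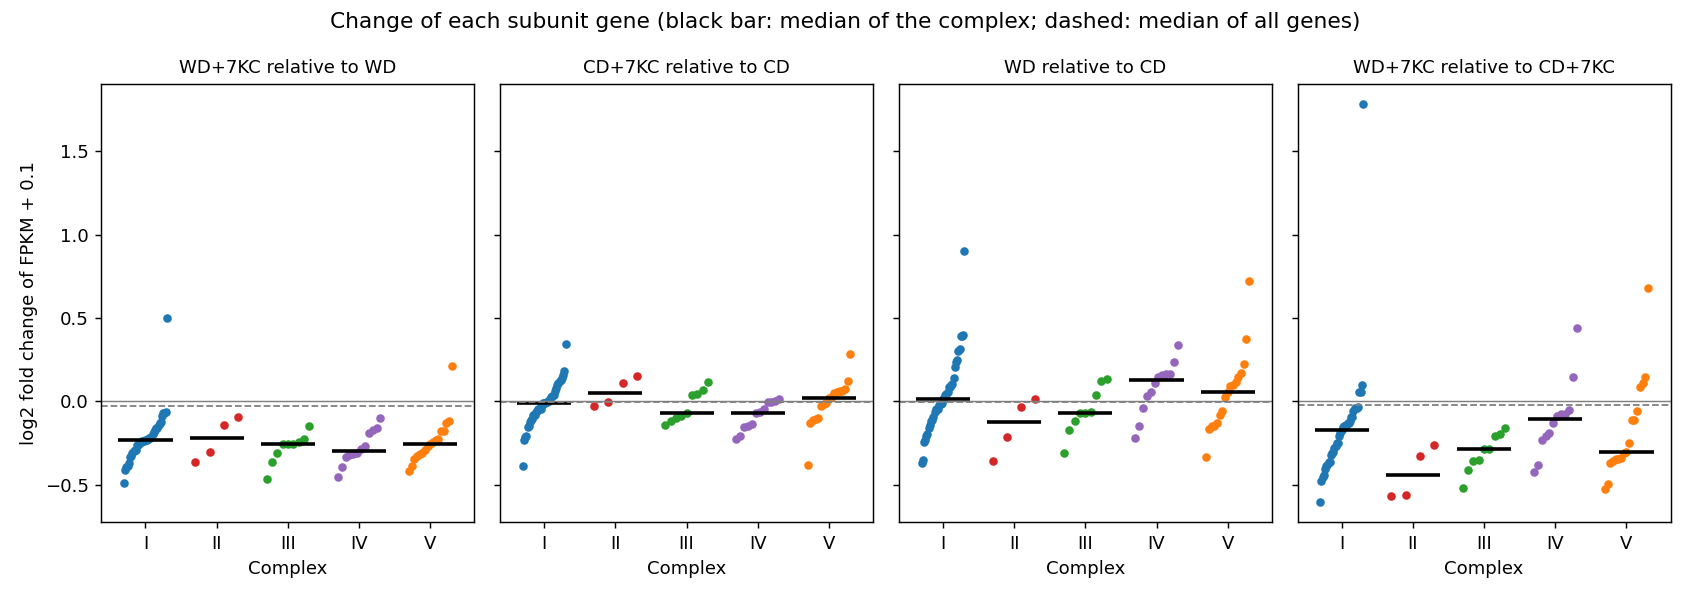
Log2 fold change of each subunit gene (points, FPKM + 0.1, as deposited) by complex in the 4 comparisons, with the complex median as a black bar and the median of all genes dashed. In WD+7KC relative to WD the 5 bars lie between -0.30 and -0.22, and in CD+7KC relative to CD between -0.07 and 0.05. With equal sums the WD+7KC values move up by about 0.21 to 0.22.

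Level moved with this change. Over all genes, the median log2 fold change in WD+7KC compared to WD was 0.06 at a mean of 1 to 10 FPKM, -0.08 at 10 to 50, -0.17 at 50 to 200 and -0.22 at 200 to 2000 FPKM. The members lay mostly in the upper ranges, where 22 of them at 50 to 200 FPKM had a median of -0.22 and 52 at 200 to 2000 FPKM had a median of -0.29. Among the 1521 genes that averaged 50 FPKM or more, 84.2% were lower in WD+7KC compared to WD, and their median was -0.19. Set against the median of those abundant genes, the median of the 74 members averaging 50 FPKM or more was -0.07. For the 79 members against all genes tested it was -0.22. With equal sums the median of these 1521 genes was 0.025, with 669 lower and 844 higher, so their direction turned with the scaling.

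**Figure D3:**
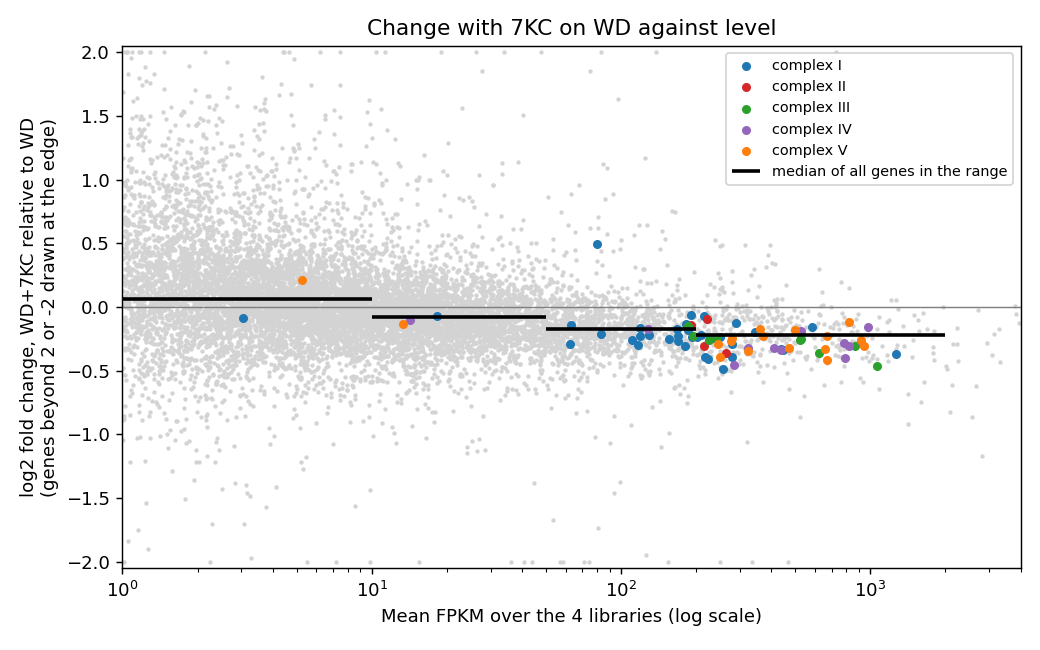
Log2 ratio of WD+7KC to WD (FPKM + 0.1, as deposited) against the mean level on a log axis for all genes tested (grey) and subunit genes (colored by complex), with the median of all genes in 4 ranges of level as black bars. The bars descend from 0.06 to -0.22, and most subunit genes sit at or below the bars on the right. With equal sums all points move up by about 0.22.

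Cell markers also differed between these libraries. The summed level of 10 hepatocyte genes was 56653 FPKM in WD and 44227 in WD+7KC. As deposited 9 of 10 were lower, beside 54.5% of all genes and 84.2% of those averaging 50 FPKM or more. With equal sums 6 of 10 were lower, and their median log2 fold change was -0.06 in place of -0.27. The summed level of 10 macrophage and Kupffer cell genes was 177 and 344 FPKM (10 of 10 higher). That of 6 endothelial genes was 39.6 and 111 FPKM (6 of 6 higher), beside 4841 of 10686 genes higher as deposited. In CD and CD+7KC the hepatocyte sum was 55848 and 47282 FPKM, the macrophage sum 126 and 178, and the endothelial sum 46.7 and 75.5. The adipocyte genes Plin1 and Lep and the muscle genes Myh1, Myh4 and Ckm were at 0 in all libraries, and Adipoq, Ucp1, Acta1 and Mb were at 0.25 FPKM or less. Others of these lists were not: Fabp4 was at 66.5 to 143 FPKM, Cidec at 115 to 202, and Cidea at 143 (CD), 99.5 (CD+7KC), 49.0 (WD) and 39.7 FPKM (WD+7KC). The adipocyte list summed to 232, 182, 306 and 314 FPKM. The part of cell makeup in the values of the subunit genes was not tested.

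In CD+7KC compared to CD the members were divided. Of 79 members 46 were lower and 33 higher, beside 51.7% of all genes lower, and the median was -0.01, which became 0.03 with equal sums. Past the threshold were Ndufs5 and Atp5s on the lower side, beside 10% of all genes, and Ndufa4l2 on the higher side, beside 12%. The difference between the 2 log2 fold changes with 7KC (WD minus CD) had a median of -0.23 over the members, with 75 of 79 below 0, as deposited. It was -0.02 over all genes, with 52.8% below 0, and -0.18 over genes averaging 50 FPKM or more, with 78.4% below 0. With equal sums the members' median was -0.05, with 57 of 79 below 0, and that of all genes 0.15. The difference has no replicate check.

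Between the diets without 7KC, members differed both ways. In WD compared to CD, 37 members were lower, beside 50.7% of all genes, and 42 were higher, with a median of 0.02. Past the threshold were 4 members on the lower side (Ndufb11, Sdha, Ndufs1 and Atp5sl), beside 19.5% of all genes, and 7 on the higher side (Ndufs5, Atp5g1, Ndufa4l2, Ndufv3, Ndufa7, Atp5g2 and Cox7a1), beside 19.2%. By complex the median was 0.01 for complex I, -0.12 for complex II, -0.07 for complex III, 0.13 for complex IV and 0.06 for complex V. The sign turned to -0.01 for complex I without Ndufa4 and Ndufa4l2 or with a filter of 50 FPKM, and to -0.08 for complex V over the 9 members that share no 75-base stretch with another gene. In WD+7KC compared to CD+7KC, 69 members were lower, beside 52.6% of all genes, and the median was -0.21, which became -0.0006 with equal sums. Past the threshold as deposited were 25 members (31.6%) on the lower side, beside 21.2% of all genes and 31.4% of those averaging 50 FPKM or more. With equal sums 3 were past it on the lower side, beside 10.3% of all genes and 17.2% of those averaging 50 FPKM or more. On the higher side were then 5, beside 36.0% of all genes and 22.3% of those averaging 50 FPKM or more. As deposited, Ndufs5, Atp5s and Cox7a1 were past it on the higher side, beside 21.1%. These 2 diet comparisons share libraries with the comparisons of 7KC.

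**Figure D4:**
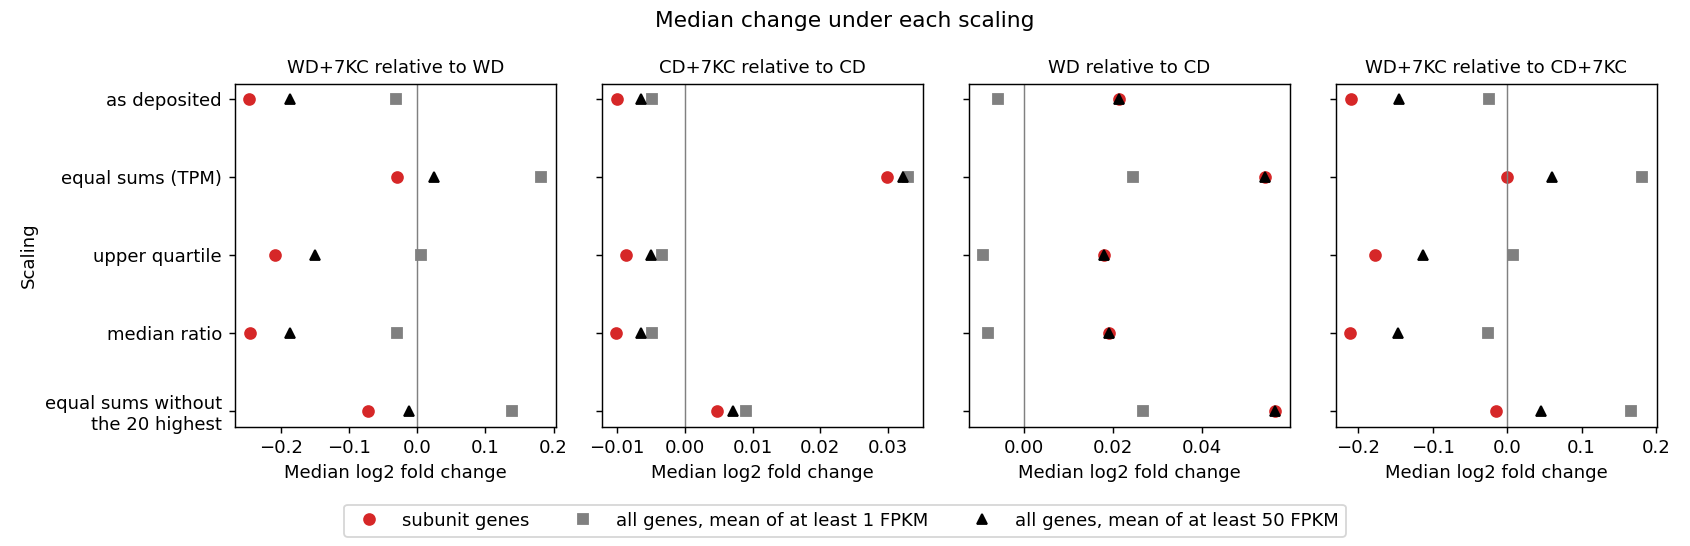
Median log2 fold change of the subunit genes (red), of all genes tested (grey) and of genes averaging 50 FPKM or more (black) under 5 scalings of the libraries, with 1 panel and 1 horizontal axis per comparison. In WD+7KC relative to WD the red points lie left of the grey and black points, and range from -0.25 as deposited to -0.03 with equal sums. A scaling moves the red, grey and black points together, so their order could not change. In CD+7KC relative to CD the red point changes side, from -0.01 to 0.03.

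Complex I, NADH:ubiquinone oxidoreductase, has 7 nuclear core subunits, which together hold the flavin and the iron-sulfur clusters, and many accessory subunits. As deposited, all 7 core genes were lower in WD+7KC than in WD (median -0.23) and than in CD+7KC (median -0.36). In CD+7KC compared to CD, 5 of 7 were higher (median 0.10). Ndufs1, the largest iron-sulfur subunit, was at 70.5 (CD), 76.1 (CD+7KC), 55.1 (WD) and 49.96 FPKM (WD+7KC). Both libraries on WD lay below both on CD, and the log2 fold change of -0.61 between WD+7KC and CD+7KC (95% interval of counting error -0.70 to -0.51) was the lowest of the members. Ndufv1, which binds NADH, was at 131, 146, 130 and 111 FPKM in the same order, highest in CD+7KC. Ndufs3, a core subunit of the arm that reaches into the matrix, was at 201, 190, 183 and 147 FPKM. It shares 27.1% of its 75-base stretches with a processed pseudogene, so its level is uncertain to that extent. Ndufs7 had another pattern, with 108, 116, 134 and 109 FPKM, so that only as deposited WD alone stood above the rest.

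Among the 30 accessory genes of complex I, 29 were lower in WD+7KC than in WD as deposited. Ndufb4, a subunit of the membrane arm, was at 306 (CD), 265 (CD+7KC), 267 (WD) and 191 FPKM (WD+7KC). CD was the highest and WD+7KC the lowest, and the log2 fold change in WD+7KC compared to WD was -0.49 (95% interval of counting error -0.58 to -0.39). Ndufb4 shares 35.2% of its 75-base stretches with processed pseudogenes, so its level is uncertain to that extent. Ndufb11, another membrane arm subunit, was at 251, 227, 194 and 167 FPKM in CD, CD+7KC, WD and WD+7KC. Its log2 fold change was -0.37 in WD compared to CD, the lowest of the members in that comparison. Ndufa7 and Ndufv3 went the other way with diet, at 253 and 200 FPKM in CD, 332 and 262 in WD, and 253 and 200 in WD+7KC. Equal sums raise WD+7KC values by about 0.22 on the log2 scale against WD. The return to the CD level therefore holds only as deposited. Ndufa10 was at 161, 183, 178 and 152 FPKM, with the highest log2 fold change of complex I in CD+7KC compared to CD (0.18) among those averaging 10 FPKM or more.

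Ndufa4, named for complex I but known as a subunit of complex IV, was the most abundant member, at 1323, 1315, 1360 and 1053 FPKM in CD, CD+7KC, WD and WD+7KC. As deposited, only WD+7KC stood apart, with a log2 fold change of -0.37 against WD, a value that equal sums raise by about 0.22. Its paralog Ndufa4l2, which is known to be induced by hypoxia, was at 2.52, 3.22, 3.34 and 3.14 FPKM. That rested on 20.2 estimated reads in CD, and the 95% interval of its log2 fold change in CD+7KC compared to CD ran from -0.52 to 1.29.

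Ndufs5, an accessory subunit of complex I (chr4:123712710-123718186, mm10), was the exception of the whole group. It was at 51.1 (CD), 39.1 (CD+7KC), 95.7 (WD) and 135 FPKM (WD+7KC), so that both libraries on WD lay above both on CD. The log2 fold change was -0.38 in CD+7KC compared to CD and 0.50 in WD+7KC compared to WD. However, 32.4% of its 75-base stretches also occur in BC002163, an annotated processed pseudogene (chr16:42955631-42955949, plus strand). The coding sequence of Ndufs5 aligned to this copy over 319 bases with 317 identical (99.4%). The longest run without a difference covers coding bases 106 to 319 and is longer than a 75-base read. It is printed because a read from it fits both genes; it is identical throughout and holds no capitals (GENCODE vM21 transcript, GRCm38).

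Ndufs5 coding bases 106 to 319: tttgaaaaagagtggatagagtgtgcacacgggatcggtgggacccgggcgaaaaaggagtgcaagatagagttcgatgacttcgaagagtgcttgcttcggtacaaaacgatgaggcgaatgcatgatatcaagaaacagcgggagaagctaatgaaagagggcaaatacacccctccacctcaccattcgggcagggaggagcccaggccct

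BC002163 was at 114 (CD), 127 (CD+7KC), 55.5 (WD) and 1.49 FPKM (WD+7KC). Its order was the reverse of that of Ndufs5. The sum of both was 165, 166, 151 and 137 FPKM, with log2 differences of 0.01 in CD+7KC compared to CD and -0.15 in WD+7KC compared to WD. The level of Ndufs5 on its own is therefore uncertain in each library. FPKM is a level per length and the transcripts differ in length (525 and 319 bases). Summed FPKM therefore does not keep the number of reads, and the sign of its differences is uncertain too.

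**Figure D5:**
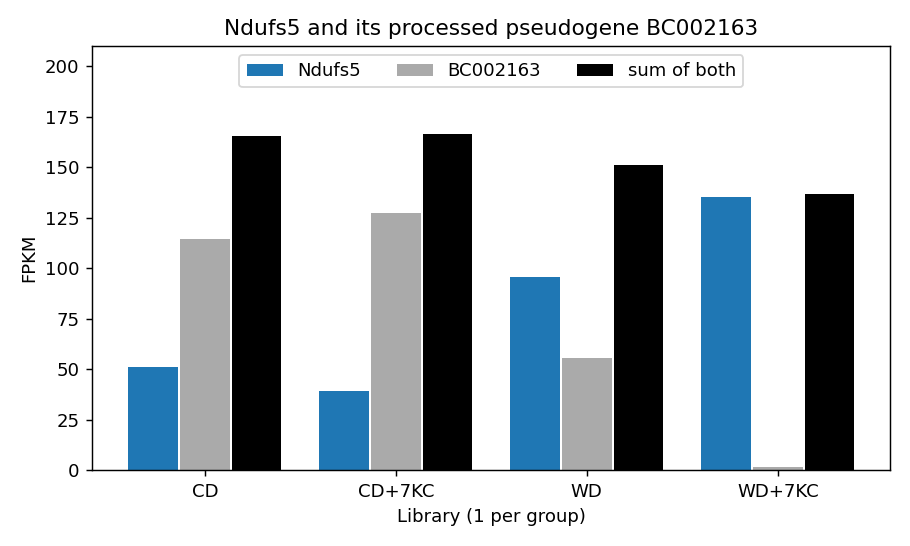
FPKM of Ndufs5 (blue), of its processed pseudogene BC002163 (grey) and of their sum (black) in the 4 libraries, 1 per group. Ndufs5 is between 39.1 and 135 FPKM and BC002163 between 127 and 1.49 in opposite order, while the sum stays between 137 and 166. The transcripts differ in length, so the sum of FPKM does not keep the number of reads.

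Complex II, succinate dehydrogenase, is also an enzyme of the tricarboxylic acid cycle and has 4 subunits, all nuclear. Sdha, the flavin subunit that oxidizes succinate, was at 247 (CD), 266 (CD+7KC), 193 (WD) and 180 FPKM (WD+7KC). Diet separated its libraries, with log2 fold changes of -0.36 in WD compared to CD and -0.56 in WD+7KC compared to CD+7KC, against 0.11 and -0.09 for 7KC on CD and on WD. Sdhb, the iron-sulfur subunit, was at 297, 297, 257 and 200 FPKM, equal in both CD libraries and lowest in WD+7KC. Compared to WD, its log2 fold change with 7KC was -0.36 (95% interval of counting error -0.45 to -0.28). The membrane anchors Sdhc and Sdhd were at 191 and 225 (CD), 213 and 221 (CD+7KC), 187 and 228 (WD), and 170 and 184 FPKM (WD+7KC). In WD+7KC compared to CD+7KC the median of complex II was -0.44 and stayed at -0.23 with equal sums, with 4 of 4 genes lower under both.

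Complex III carries electrons from ubiquinol to cytochrome c. Its catalytic subunits Cyc1 (cytochrome c1) and Uqcrfs1 (the Rieske iron-sulfur protein) were at 256 and 250 (CD), 264 and 238 (CD+7KC), 245 and 222 (WD), and 207 and 186 FPKM (WD+7KC). Both were lowest in WD+7KC. The core proteins Uqcrc1 and Uqcrc2 were at 193 and 202, 202 and 220, 184 and 193, and 166 and 165 FPKM in the same order, with CD+7KC the highest. Uqcrq, a small ubiquinone-binding subunit, was the most abundant of the complex, at 1122, 1016, 1223 and 886 FPKM. Its log2 fold change was -0.46 in WD+7KC compared to WD (95% interval of counting error -0.50 to -0.43) and -0.14 in CD+7KC compared to CD, the lowest of the complex in both. Uqcr11, the smallest subunit, was at 1020, 952, 821 and 664 FPKM, with both WD libraries below both CD libraries. Uqcrb, which contacts cytochrome b, was at 522, 536, 573 and 480 FPKM and had the highest log2 fold change of the complex in WD compared to CD, 0.13. It shares 29.1% of its 75-base stretches with processed pseudogenes, so its level is uncertain to that extent.

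Complex IV, cytochrome c oxidase, has several subunits with paralogs that are known for other tissues. The liver or general forms Cox4i1, Cox6a1, Cox6b1, Cox7a2, Cox7b and Cox8a were at 224 to 1104 FPKM in the 4 libraries. Of the other forms, Cox7a1 was at 11.4 to 16.6 FPKM and the remaining 6 averaged less than 1 FPKM. Cox7b2 and Cox8c were listed at 0 in all libraries, Cox4i2 was at 0.17 (CD), 0 (CD+7KC), 0.20 (WD) and 0.16 FPKM (WD+7KC), and Cox8b was at 0.53 FPKM in WD+7KC and at 0 elsewhere. Cox6a2, the heart and muscle form, was at 0.20 FPKM in CD+7KC and 0.91 in WD+7KC and at 0 in CD and WD. Cox6b2, the testis form, was at 0.71, 0.41 and 2.10 FPKM in CD+7KC, WD and WD+7KC and at 0 in CD. The values of Cox6a2 in CD+7KC and WD+7KC correspond to 1.1 and 5.3 estimated reads, too few to read an order from.

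Cox7b, a small nuclear subunit, had the lowest log2 fold change of complex IV in WD+7KC compared to WD, -0.45 (95% interval of counting error -0.54 to -0.37). It was at 300 (CD), 301 (CD+7KC), 306 (WD) and 224 FPKM (WD+7KC), so that as deposited WD+7KC stood apart from 3 libraries at 300 to 306 FPKM. Cox8a was at 814, 735, 912 and 693 FPKM, and Cox5a, a subunit of the matrix side, at 436, 441, 487 and 387. Cox6a1, the most abundant gene of the complex, was at 937, 894, 1104 and 991 FPKM, with both WD libraries above both CD libraries. Cox6c was at 941, 806, 850 and 687 FPKM, the lowest log2 fold change of complex IV in CD+7KC compared to CD (-0.22). Cox7c was at 477, 429, 410 and 329 FPKM, lowest in both WD libraries, but shares 50.4% of its 75-base stretches with processed pseudogenes. Cox7a1, known from heart and muscle, was at 13.2, 11.4, 16.6 and 15.5 FPKM, with intervals of counting error that include 0 in each comparison. Cox7a2l, a factor that joins complexes III and IV, was at 134, 133, 130 and 115 FPKM.

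Complex V, ATP synthase, has a catalytic F1 head and a membrane part that lets protons through. The 5 genes of the F1 head were all lower in WD+7KC than in WD as deposited, with a median of -0.18 that lies above 0 with equal sums. The alpha and beta subunits Atp5a1 and Atp5b were at 539 and 835 (CD), 533 and 911 (CD+7KC), 486 and 803 (WD), and 429 and 739 FPKM (WD+7KC). Atp5b had the smallest difference of the complex against WD among those averaging 10 FPKM or more, -0.12. The gamma subunit Atp5c1 was at 354, 360, 324 and 255 FPKM, a log2 fold change of -0.35 in that comparison. Atp5d (delta) was at 354, 367, 383 and 339 FPKM and Atp5e (epsilon) at 705, 729, 666 and 568.

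Outside the head, Atp5j, the coupling factor 6 subunit of the stalk, was at 672 (CD), 707 (CD+7KC), 742 (WD) and 556 FPKM (WD+7KC), with a log2 fold change of -0.42 in WD+7KC compared to WD. Atp5f1, the b subunit of the stalk, was at 262, 260, 268 and 205 FPKM, with 3 libraries near each other and WD+7KC below as deposited. Atp5k and Atp5l, small subunits of the membrane part known from ATP synthase dimers, were at 1063 and 749 FPKM in CD and 777 and 531 in WD+7KC, the lowest of their 4 libraries as deposited. Atp5l shares 63.4% of its 75-base stretches with processed pseudogenes, so its level is uncertain. The genes Atp5g1, Atp5g2 and Atp5g3 encode precursors of the same mature subunit c, which forms the proton-carrying ring. Atp5g1 was at 187, 228, 310 and 253 FPKM, Atp5g2 at 252, 256, 327 and 272, and Atp5g3 at 941, 879, 1009 and 843. Each of the 3 was highest in WD, and Atp5g1 had the largest log2 fold change in WD compared to CD, 0.73 (0.38 for Atp5g2 and 0.10 for Atp5g3). Atp5g2 shares 86.9% of its 75-base stretches with pseudogene transcripts, so its level is uncertain.

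As deposited, the only member of complex V above WD in WD+7KC was Atp5s, also known as factor B and not a structural subunit. It was at 5.18, 3.96, 5.53 and 6.41 FPKM, with a 95% interval of counting error from -0.25 to 0.68 around its log2 fold change of 0.21. Atp5sl, named for the same family but known as an assembly factor of complex I, was at 15.0, 15.7, 11.9 and 10.9 FPKM, with both WD libraries below both CD libraries.

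Promoters were looked at because most members were lower together in WD+7KC compared to WD. RefSeq windows of 300 bases (250 before and 50 after the start, GRCm38.p6) were held for 69 of the 85 genes, in 75 windows, and for 32851 starts of all genes. Letters of 7 motifs were searched on both strands, overlaps with other motifs allowed. The letters GCGCANGCG, known for NRF1, a regulator of respiratory genes, were in 28% of the members' windows, in 6.25% of all windows and in 13.5% of the 1457 windows of genes averaging 50 FPKM or more. CCGGAAG, known for ETS factors such as GABP, was in 21.3%, 8.86% and 16.1%. AAGATGGC, known for YY1, was in 16%, 2.75% and 4.67%. In the same order, TCAAGGTCA, known for estrogen-related receptors, was in 2.67%, 0.423% and 0.480%, TGACGTCA (CRE) in 5.33%, 1.79% and 2.61%, GGGCGG (Sp1) in 38.7%, 35.7% and 54.6%, and CCAAT in 42.7%, 37.4% and 39.9%. Of the 69 genes, 39 held letters of NRF1, ETS or YY1. They were missing from the windows of 14 of 32 genes in complex I, 0 of 3 in complex II, 2 of 5 in complex III, 10 of 13 in complex IV and 4 of 16 in complex V.

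The stretches below are the 120 bases before the start of 5 genes, from RefSeq (GRCm38.p6), printed 5′ to 3′ on the strand of the gene. They were chosen to set the lowest member of complexes I and IV in WD+7KC compared to WD beside genes that differed by diet (Sdha and Uqcr11) and beside the most abundant gene of complex IV. Capitals mark the NRF1 and ETS letters on either strand. Ndufb4 (chr16:37654369-37654488, minus strand) holds 2 NRF1 matches. Sdha (chr13:74350241-74350360, minus strand) holds 3. Uqcr11 (chr10:80406822-80406941, minus strand) holds 1 ETS match, Cox6a1 (chr5:115348959-115349078, minus strand) 1 of each, and Cox7b (chrX:106015580-106015699, plus strand) none in this stretch.
Ndufb4: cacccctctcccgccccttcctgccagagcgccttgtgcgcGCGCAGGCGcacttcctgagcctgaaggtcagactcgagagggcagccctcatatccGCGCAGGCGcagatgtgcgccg
Sdha: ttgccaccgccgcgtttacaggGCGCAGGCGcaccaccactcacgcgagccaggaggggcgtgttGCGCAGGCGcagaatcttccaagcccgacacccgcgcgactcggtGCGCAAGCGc
Uqcr11: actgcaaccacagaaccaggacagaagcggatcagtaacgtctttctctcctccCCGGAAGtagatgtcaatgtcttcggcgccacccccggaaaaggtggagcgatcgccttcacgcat
Cox6a1: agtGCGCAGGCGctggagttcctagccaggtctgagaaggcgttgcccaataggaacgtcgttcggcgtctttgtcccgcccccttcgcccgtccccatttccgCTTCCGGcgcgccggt
Cox7b: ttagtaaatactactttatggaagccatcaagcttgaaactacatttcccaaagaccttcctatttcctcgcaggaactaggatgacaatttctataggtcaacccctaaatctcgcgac

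Members with and without these letters had medians near each other. In WD+7KC compared to WD the median was -0.25 for the 20 tested genes with NRF1 letters and -0.25 for the 46 without. It was -0.31 for the 16 with ETS letters against -0.24 for the 50 without, and -0.29 for the 11 with YY1 letters against -0.25 for the 55 without. Ndufb4 with its 2 matches and Cox7b with none were at -0.49 and -0.45 in that comparison. A match of letters is a description and not a bound site.

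Factors that help the complexes to assemble were also mostly lower in WD+7KC, as deposited. Of all genes tested, 54.5% were lower in WD+7KC than in WD, and of those averaging 50 FPKM or more 84.2%. Of 45 assembly factors tested, 39 were lower in WD+7KC than in WD as deposited (median -0.19, above 0 with equal sums). Past the threshold on the lower side were 7 (15.6%), beside 13.1% of all genes, among them Sco2, Cox16 and Cox20 of complex IV. Coa4 was past it on the higher side, beside 15.3% of all genes. In CD+7KC compared to CD 18 of 45 were lower, beside 51.7% of all genes, with a median of 0.04. The mitochondrial ribosomal proteins, which translate the subunits encoded in the organelle, had 73 of 77 genes lower in WD+7KC than in WD (median -0.24 as deposited, -0.03 with equal sums), and 24 of them (31.2%) were past the threshold on the lower side as deposited, beside 13.1% of all genes and 22.6% of those averaging 50 FPKM or more. The cytosolic ribosomal proteins, another abundant group, were lower for 71 of 77 as deposited (median -0.17, above 0 with equal sums). Past the threshold on the lower side were 7 of these 77, beside 13.1% of all genes and 22.6% of those averaging 50 FPKM or more. In WD compared to CD 71 of 77 were higher (median 0.22), beside 5250 of 10686 genes.

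Enzymes of the tricarboxylic acid cycle supply NADH to complex I. The list of 16 genes also held Pdha1, Pdhb and Dlat of pyruvate dehydrogenase, which is not an enzyme of the cycle itself. As deposited, 13 of 16 were lower in WD+7KC than in WD, beside 54.5% of all genes. Their median was smaller, at -0.08, and above 0 with equal sums. Past the threshold on the lower side was 1 gene (Suclg1), beside 13.1% of all genes. In CD+7KC compared to CD 14 of 16 were higher (median 0.06), beside 5142 of 10686 genes. Among 11 electron carriers and partners of the inner membrane, 8 were lower in WD+7KC than in WD as deposited (median -0.12, above 0 with equal sums). Usmg5, a small ATP synthase subunit that the symbol rule does not take, was at 771 (CD), 826 (CD+7KC), 830 (WD) and 632 FPKM (WD+7KC), lowest in WD+7KC as deposited, as were Atp5k and Atp5l (the latter uncertain, as above). Ndufab1, the acyl carrier protein of complex I that the rule also leaves out, was at 148, 155, 124 and 115 FPKM. Cycs, cytochrome c itself, was at 77.5, 78.1, 85.5 and 69.2 FPKM. Ucp2, an inner membrane carrier known from macrophages, was higher in both WD libraries, at 29.0, 42.4, 62.6 and 72.9 FPKM.

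Regulators of mitochondrial biogenesis were divided in WD+7KC compared to WD. Of 14 tested, 8 were lower and 6 higher as deposited (median -0.06, above 0 with equal sums), beside 54.5% of all genes lower. Tfb1m and Slirp were past the threshold on the lower side, beside 13.1% of all genes, and Nrf1 and Pprc1 on the higher side, beside 15.3%. Nrf1, the factor of the NRF1 letters, was at 2.38 (CD), 2.50 (CD+7KC), 2.01 (WD) and 2.65 FPKM (WD+7KC). Gabpa, an ETS factor, was at 11.4, 10.4, 7.61 and 6.57 FPKM, and Yy1 at 23.4, 18.2, 15.2 and 13.7. Both were highest in CD, and lowest in WD+7KC as deposited, whereas with equal sums their log2 values in WD+7KC compared to WD were 0.004 and 0.07. The coactivator Ppargc1a was at 1.33, 1.54, 1.09 and 1.37 FPKM, and Tfam, which packs and transcribes mitochondrial DNA, at 12.97, 11.8, 12.6 and 10.7. In WD compared to CD 10 of 14 regulators were lower (median -0.21), beside 50.7% of all genes, where the subunits had a median of 0.02.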

How the data were processed

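The authors isolated RNA from liver and prepared stranded mRNA libraries, from which 75-base single-end reads were sequenced. Per the submitters' processing notes, reads were mapped to mm10 with TopHat2 2.0.13, Bowtie2 2.2.3 and SAMtools 0.1.19, and the authors deposited FPKM values from Cufflinks 2.2.1, with 1 value per gene symbol and library. The annotation and options are not given in the sources used here. Groups were taken from the labels (1 library each).

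Log2 fold changes of the deposited FPKM used a pseudocount of 0.1 FPKM, which understates the change of low genes, and were kept for genes averaging 1 FPKM or more. No test was run. Depth was estimated from the whole-read steps of low values in 14589 genes with 1 linked RefSeq mRNA, with 200 bases taken from the transcript length, and 72.5% to 74.3% of these values lay within 0.1 of a whole read. Exact (Clopper-Pearson) 95% intervals of the estimated reads cover counting error only, not the spread between mice, and were given only for genes with 1 linked mRNA. FPKM is uncertain for short transcripts (10 members under 500 bases) and where reads fit several genes: 27 members share at least 1 stretch of 75 bases with another gene's transcript, and 58 share none. More than 10% of the stretches are shared in 16 members, among them Cox6c (16.6%), Atp5f1 (15.4%) and Cox7a2l (13.4%). Exons of 26 members overlap a gene on the other strand, and of 5 a gene on the same strand. Coordinates, transcripts and overlaps came from GENCODE vM21 (GRCm38), and promoters from RefSeq (GRCm38.p6).

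The members and lists were chosen with earlier results of these data known. The text names, per complex, the gene with the highest mean and those with the highest and lowest log2 fold change in each comparison (averaging 10 FPKM or more), genes past the threshold in both comparisons with 7KC, paralog groups and the catalytic subunits. Other genes with values in the text were chosen after their values were seen. Alternatives were other pseudocounts, filters, scalings, thresholds and a membership without Ndufa4 and Ndufa4l2 in complex I and without the non-subunits Cox7a2l, Atp5s and Atp5sl. A filter of 50 FPKM, the members that share no 75-base stretch, the ranges of level and the counts by order and pathway with equal sums were chosen after seeing the data. The scripts were tested on simulated data. Python 3.11.15, numpy 2.4.6, scipy 1.17.1 and pandas 2.3.3 were used, with matplotlib 3.10.9 for figures. Measurements in db/db mice and other assays of the study were not analysed here. Some values of single genes are not reported here.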

Additional observations from a re-analysis of the deposited data

Results flagged for a closer look

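Ndufs5 was the only member past the threshold (20% lower or 25% higher) in opposite directions in the comparisons with 7KC, -0.38 on CD and 0.50 on WD on the log2 scale, a difference of 0.88. The difference was not tested, since each group had 1 library. Of the 75-base stretches of Ndufs5, 32.4% also occur in the pseudogene BC002163, which was in the reverse order. The summed FPKM of both had log2 differences of 0.01 on CD and -0.15 on WD. The transcripts differ in length, so summed FPKM does not keep the number of reads and the sign of these differences is uncertain.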

How the results depend on the processing

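No paired analysis was possible because each group had 1 library, and no library was left out for the same reason. The members' median in WD+7KC compared to WD was -0.25 as deposited, -0.030 with equal sums (TPM), -0.21 with upper quartile scaling and -0.072 with equal sums without the 20 most abundant genes. In CD+7KC compared to CD the equal-sum scalings gave 0.030 and 0.0048 in place of -0.01, and in WD compared to CD 0.054 and 0.056 in place of 0.02. In WD+7KC compared to CD+7KC the median was -0.00057 and -0.015 with these scalings, -0.18 with upper quartile scaling, -0.23 and -0.24 with filters of 10 and 50 FPKM, -0.22 without non-subunits and -0.19 over members that share no 75-base stretch (0.035 in WD compared to CD). Relative to the median of all genes, the members in WD+7KC compared to WD were at -0.24 with no filter, -0.13 with a filter of 10 FPKM and -0.068 with a filter of 50 FPKM, against -0.22. The same quantity in WD+7KC compared to CD+7KC was -0.21, -0.15 and -0.093, -0.20 without non-subunits and -0.17 over members that share no stretch. In CD+7KC compared to CD it was 0.0043 with a filter of 10 FPKM, and in WD compared to CD it was -0.0010 and -0.0076 with filters of 10 and 50 FPKM and 0.041 over members that share no stretch. The count past the threshold in WD+7KC compared to WD went from 18 to 2 with either equal-sum scaling, and to 0 at 1.5-fold and 0 at 2-fold. In CD+7KC compared to CD it went from 3 to 1 with a pseudocount of 1 FPKM or a filter of 10 or 50 FPKM, to 6 with no filter and to 0 at 1.5-fold and 2-fold. In WD compared to CD it was 2 at 1.5-fold and 0 at 2-fold, and in WD+7KC compared to CD+7KC it was 8 with equal sums, 10 without the 20 most abundant genes, 3 at 1.5-fold and 1 at 2-fold. The causes were not tested. Of the 20 medians by complex and comparison, 3 changed sign with equal sums, 3 with equal sums without the 20 most abundant genes, 1 without non-subunits, 1 with a filter of 50 FPKM, 2 over members that share no stretch and 0 with the other settings. Members of low level, such as Ndufa4l2 and Cox7a1, rest on few reads, and short transcripts make FPKM uncertain.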
